A study of Mus musculus with 8 samples.

Results

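The tolloid proteinases and their enhancers are the 5 genes Bmp1, Tll1, Tll2, Pcolce and Pcolce2, chosen by name from the 36413 gene names on the array. They were represented by 8 of the 55681 noncontrol probes, 3 for Bmp1, 2 for Tll1 and 1 for each of the others. The set was proposed with the genotype differences of these arrays in view, Tll1 among them. The genotype difference of each member is therefore given as a description with no p-value of its own, and the count of members past the threshold used for all genes stands only beside the share of all genes that passed it.

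Injured carotid arteries were compared between 4 miR-126+/+ and 4 miR-126-/- mice, with 1 mouse per array. Mice of both groups were ApoE-/-, so the controls also lack apolipoprotein E, and all were females of 6 weeks and mixed genetic background on a western-type diet. The artery was injured with a wire and taken 14 days later, when a neointima grows, a new inner layer made largely of smooth muscle cells and the matrix they secrete. The labels name no promoter or Cre and do not say how the miR-126 allele was made or whether the mice were littermates. The comparison asks what the loss of miR-126, a microRNA of endothelial cells, does to transcripts of the injured vessel wall.

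Fibrillar collagens are secreted as procollagens with a bulky propeptide at each end, and fibrils form after these ends are cut off. Bmp1 and the tolloid-like proteins encoded by Tll1 and Tll2 are related astacin metalloproteinases, and those of Bmp1 and Tll1 remove the C-propeptide of the major fibrillar procollagens. Proteinases of this family also cut lysyl oxidase, small proteoglycans, growth factor precursors and the BMP antagonist chordin. Pcolce and Pcolce2 encode glycoproteins without protease activity that bind the procollagen and speed its cleavage. Collagen made this way gives the neointima much of its bulk and stiffness.

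Sequences are shown for the regulator that was deleted and for the paralogs at the extremes of the set, Tll1, whose signal was lower in all miR-126-/- mice, and Tll2, which was not detected. They come from RefSeq tables on build GRCm38.p6. The mature strand mmu-miR-126a-3p (chr2:26591402-26591423, plus strand) is printed with its seed, bases 2 to 8, in capitals. Promoter entries matched 4 of the 5 genes, all but Bmp1, and each runs from 250 bases before to 50 bases after the start site. Capitals in the promoters mark matches on either strand to the letters TATAAA of a TATA box, GGGCGG of a GC box or CCAAT.
mmu-miR-126a-3p: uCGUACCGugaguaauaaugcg
Tll1 promoter (chr8:64205959-64206258, minus strand): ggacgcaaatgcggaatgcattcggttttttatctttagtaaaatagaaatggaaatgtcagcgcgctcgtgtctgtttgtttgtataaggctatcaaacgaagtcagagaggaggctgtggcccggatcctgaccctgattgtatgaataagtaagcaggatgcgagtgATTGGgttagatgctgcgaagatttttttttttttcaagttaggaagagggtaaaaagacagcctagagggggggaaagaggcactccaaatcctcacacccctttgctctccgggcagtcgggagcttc
Tll2 promoter (chr19:41206725-41207024, minus strand): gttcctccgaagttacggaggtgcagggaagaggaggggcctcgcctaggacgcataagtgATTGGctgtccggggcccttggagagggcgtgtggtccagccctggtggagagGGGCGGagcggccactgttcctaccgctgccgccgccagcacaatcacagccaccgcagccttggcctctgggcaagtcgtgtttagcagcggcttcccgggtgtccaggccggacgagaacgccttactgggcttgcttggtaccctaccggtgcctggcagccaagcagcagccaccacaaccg

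The Tll1 promoter had a GC content of 46.3%, against a median of 52.7% over 32851 promoters of the same length, and 12 CpG dinucleotides against a median of 7. It held 1 CCAAT match, with its first base at position -80, and no other match. The Tll2 promoter was richer in G and C (65.7%, 20 CpG) and held a GC box at -136 and a CCAAT match at -189. The enhancer genes differed in CpG number, with 5 in the Pcolce promoter and 17 in that of Pcolce2, and both held GC boxes (1 in Pcolce at -60, 2 in Pcolce2 at -40 and 19). No member promoter matched TATAAA. Of all promoters, 13.6% held TATAAA, 35.7% held GGGCGG and 37.4% held CCAAT on either strand. These matches describe letters in a window and are not shown to be sites.

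The Bmp1 and Pcolce2 signals rest on 60-base probes. Given are the single Pcolce2 probe and the 5'-most Bmp1 probe, the only Bmp1 probe whose genotypes did not overlap. The values given below for Bmp1 as a gene come from its brightest probe, A_55_P2006703, which is not printed. Probe coordinates are given as in the files, which use build mm9.
Bmp1 A_55_P2006708 (chr14:70890355-70890414, minus strand): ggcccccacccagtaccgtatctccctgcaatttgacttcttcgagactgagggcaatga
Pcolce2 A_51_P245789 (chr9:95595436-95595495, plus strand): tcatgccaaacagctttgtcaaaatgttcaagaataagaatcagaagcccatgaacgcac

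The 8 arrays lay on 1 slide and were read in 1 scan, with the miR-126+/+ arrays in slide row 1 and the miR-126-/- arrays in slide row 2, so an effect of slide row and one of genotype cannot be told apart. Between 55.9% and 61.5% of probes per array were well above background, and 0 spots were saturated. Values are log2 processed signal minus the array's own 75th percentile, which lay between 619.7 and 864.6 intensity units, so a value of 0 is the 75th percentile. All 7 smooth muscle, 7 endothelial and 9 fibroblast marker genes were well above background on all 8 arrays, which are markers of the labelled tissue. Markers of neighbouring tissue varied: the mean of 8 tested skeletal muscle markers, each gene centred over the arrays, was 3.20 on miR-126+/+ 2 and 3.15 on miR-126-/- 1 and at most 0.57 elsewhere. All 9 adipocyte markers were higher in miR-126-/- arteries, and their mean ran from -1.17 to 0.24 in miR-126+/+ and from 0.12 to 1.05 in miR-126-/- arteries. No probe was named for miR-126 (0 probes), and the host gene Egfl7 (5.78 ± 0.17 against 6.26 ± 0.18, SD, n = 4 each) and Apoe (1.76 ± 0.53 against 2.38 ± 0.28) are not known to be probed in a deleted part, so none of these checks the labels. Array miR-126-/- 4 has a dim area (grid rows 55 to 100, columns 56 to 70) that held none of the member spots.

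Of the 5 genes, 4 passed the filter on dim probes (well above background on at least 3 of 4 arrays of a genotype), through 7 of the 8 probes, each of them well above background on all 8 arrays. In limma with Benjamini-Hochberg adjustment over 23830 genes, 0 of these 4 genes passed an adjusted p of 0.05, where 0.113% of all genes did (27 genes). With array weights, where 71 genes passed, 1 of the 4 did. Of the 7 probes 6 were lower in miR-126-/- arteries, as were 51.4% of all probes that passed, and 3 were lower without overlap of the genotypes, which was so for 2.57% of the 32484 probes that passed the filter. The genotype contrast was among the values that chose the genes, so nothing is read from these counts.

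Tll1, a close paralog of Bmp1 with procollagen C-proteinase and chordinase activity, had the largest difference of the set. Its brighter probe, A_55_P2178327 on chromosome 8 (66493567 to 66493626), gave -1.90, -1.95, -1.44 and -1.87 in miR-126+/+ mice 1 to 4. In miR-126-/- mice 1 to 4 it gave -3.14, -2.72, -3.08 and -2.68. All 4 miR-126-/- values lay below all 4 miR-126+/+ values, with a gap of 0.73 between the nearest mice, and miR-126+/+ mouse 3 stood highest. The means were -1.79 ± 0.24 and -2.90 ± 0.24 (SD, n = 4 each), a difference of -1.11 ± 0.16 (SE) or 2.16-fold. On the linear scale the unscaled signal was 192.6 to 236.6 intensity units in miR-126+/+ and 95.8 to 120.7 in miR-126-/- arteries, well below the 75th percentile of each array. In a bulk artery, fewer cells that make Tll1 and less Tll1 RNA per cell cannot be told apart.

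The second Tll1 probe, A_55_P2178324 (chromosome 8, 66684228 to 66684287), lies toward the start of the gene, which is read from the minus strand. It gave -3.54, -3.63, -3.37 and -3.52 in miR-126+/+ mice 1 to 4 and -3.81, -3.94, -3.91 and -4.08 in miR-126-/- mice 1 to 4. The genotypes again did not overlap, and the nearest mice were 0.18 apart. The difference was -0.42 ± 0.10 (SE, n = 4 each), or 1.34-fold, smaller than at the brighter probe. This probe was dimmer, at 39.8 to 75.5 intensity units. Both probes are listed for the same RefSeq and Ensembl transcripts, and the dimmer probe also for 2 cDNA clones that the brighter one is not listed for. The spread between mice was 0.24 (residual SD) for the brighter and 0.11 for the dimmer probe, at the 52.2 and 12.6 percentile of all probes that passed. Over the 8 arrays the probes correlated at r = 0.86 (Spearman 0.76), but at r = 0.06 once the genotype means were removed. The miR-126+/+ mice ranked in the same order on both probes, and the miR-126-/- mice ranked in opposite orders. These correlations and ranks are a description, and the probes share arrays and scaling. With the adipocyte marker mean as a covariate the difference at the brighter probe was -1.09 ± 0.28 (SE), a larger SE than without it. With the skeletal muscle marker mean it was -1.11 ± 0.17 (SE), and leaving out any single array gave -1.19 to -0.996. Normexp background correction gave -0.83.

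**Figure D1:**
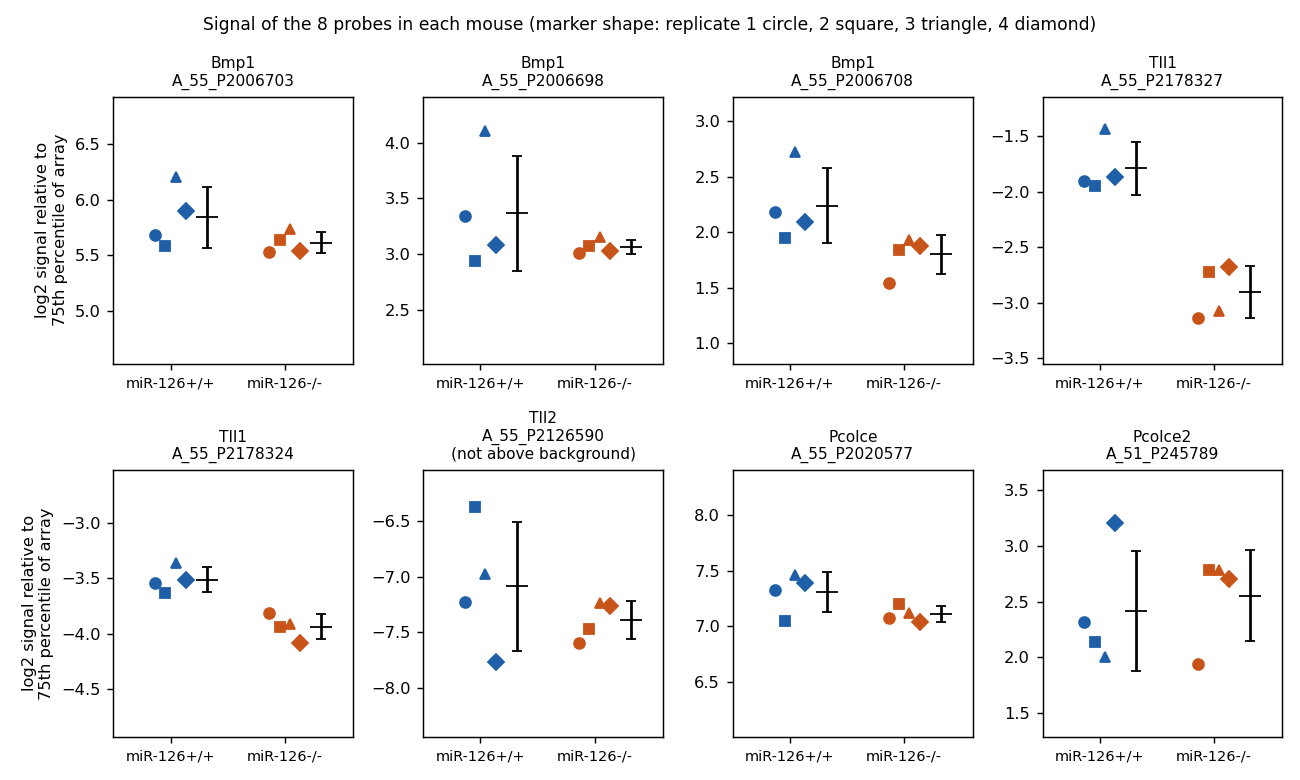
Log2 signal relative to the 75th percentile of each array (y axis, every panel spanning 2.4 log2 units) for the 8 probes by genotype (x axis), 1 point per mouse, with the mean and SD as a black bar (n = 4). Both Tll1 probes show miR-126-/- mice below all miR-126+/+ mice, the Bmp1 probes share a high value in miR-126+/+ mouse 3, and Tll2 lies at background.

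Bmp1, the founding member and main procollagen C-proteinase of most tissues, gave smaller differences in the same direction. Its brightest probe, A_55_P2006703 (chromosome 14, 70874370 to 70874429), gave 5.68, 5.58, 6.20 and 5.90 in miR-126+/+ mice 1 to 4 and 5.53, 5.64, 5.73 and 5.54 in miR-126-/- mice 1 to 4. The genotypes overlapped, and the highest value belonged to miR-126+/+ 3. The means were 5.84 ± 0.27 and 5.61 ± 0.09 (SD, n = 4 each), a difference of -0.23 ± 0.14 (SE). Without miR-126+/+ 3 the difference was -0.11.

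The Bmp1 gene makes a short proteinase, BMP-1, and a longer one, mammalian tolloid, by alternative splicing, and the other probes sample other parts of the gene. Probe A_55_P2006698 (chromosome 14, 70886415 to 70886474), which the files list for a non-coding RefSeq transcript shared with the brightest probe and for an Ensembl transcript shared with the 5'-most probe, among others, gave 3.34, 2.94, 4.10 and 3.08 in miR-126+/+ mice and 3.0, 3.07, 3.15 and 3.03 in miR-126-/- mice. Here the miR-126-/- mice lay close together (SD 0.06 against 0.52) and inside the miR-126+/+ range, and the difference was -0.30 ± 0.24 (SE). The 5'-most probe, A_55_P2006708, gave 2.18, 1.94, 2.72 and 2.10 in miR-126+/+ mice and 1.54, 1.84, 1.93 and 1.88 in miR-126-/- mice. Its genotypes did not overlap, by a gap of only 0.01, and the difference was -0.44 ± 0.18 (SE) or 1.35-fold. All 3 probes placed miR-126+/+ 3 highest, and their pairwise r was 0.87 to 0.90 over the 8 arrays (0.84 to 0.92 with genotype means removed). Without the 2 arrays farthest from the median these r values were 0.69, 0.61 and 0.27, so the agreement of the last pair rests on those arrays.

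Tll2, the third proteinase of the family, was not well above background on any array with its only probe, A_55_P2126590 (chromosome 19, 41158512 to 41158571). Its processed signal was 3.97 to 9.97 intensity units in all 8 mice. No fold is given, since both genotypes were at background, and the probe sets only a bound on the level. The lowest signal that counted as well above background was -5.58 to -4.79 per array on the scale of the other members, and Tll2 gave -7.77 to -6.37.

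Pcolce, which encodes procollagen C-proteinase enhancer 1, varied little between mice. Its probe A_55_P2020577 (chromosome 5, 138046336 to 138046395) gave 7.32, 7.05, 7.46 and 7.39 in miR-126+/+ mice 1 to 4 and 7.08, 7.20, 7.11 and 7.04 in miR-126-/- mice 1 to 4. The genotypes overlapped, and miR-126+/+ 2, an array rich in skeletal muscle markers, lay as low as the miR-126-/- mice. The difference was -0.20 ± 0.11 (SE), with a residual SD of 0.14 at the 21.1 percentile of all probes. Without miR-126+/+ 2 it was -0.28 and without miR-126+/+ 3 it was -0.14. The unscaled signal of 88440 to 144800 intensity units carried no saturated spot.

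Pcolce2, the second enhancer gene, was the member that differed most between mice of the same genotype. Its probe gave 2.32, 2.14, 2.0 and 3.20 in miR-126+/+ mice 1 to 4 and 1.94, 2.79, 2.78 and 2.71 in miR-126-/- mice 1 to 4. Both the highest (miR-126+/+ 4) and the lowest (miR-126-/- 1) values broke from their own genotype, and the genotypes overlapped. The difference of 0.14 ± 0.30 (SE) was smaller than the residual SD of 0.48, which stood at the 84.0 percentile of all probes. Its size rested on single arrays, since it was 0.40 without miR-126+/+ 4, 0.34 without miR-126-/- 1 and 0.00077 without miR-126+/+ 3.

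**Figure D2:**
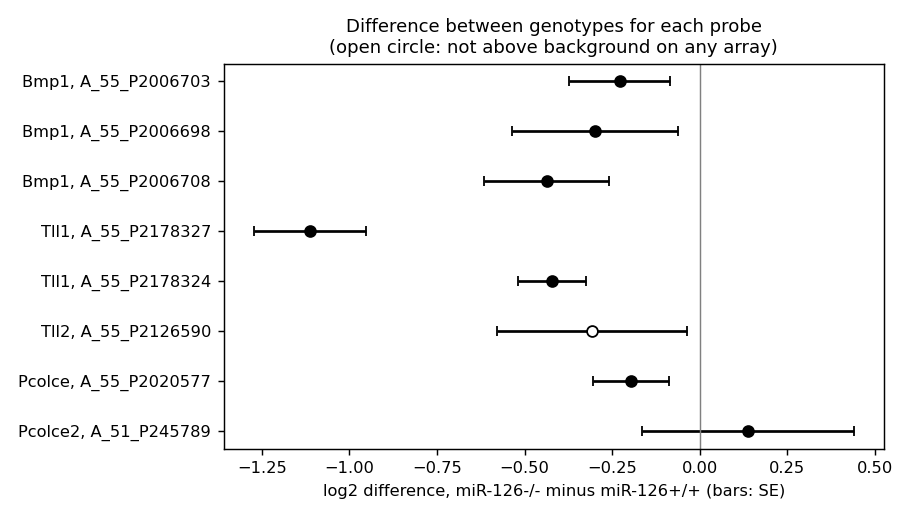
Log2 difference between genotypes (miR-126-/- minus miR-126+/+, x axis) for each of the 8 probes (y axis), with the SE of the limma fit as a bar (n = 4 mice per genotype) and Tll2, which was at background and has no measured difference, as an open circle. Both Tll1 probes and all 3 Bmp1 probes lie below 0, the brighter Tll1 probe at -1.11, while Pcolce2 lies at 0.14 with a bar that spans 0.

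Over all 8 arrays Bmp1 and Pcolce were high and low in much the same mice, whereas Pcolce2 followed a different order. Over the 8 arrays the brightest Bmp1 probe and Pcolce correlated at r = 0.86 (Spearman 0.86), at r = 0.80 with genotype means removed and at r = 0.59 without the 2 arrays farthest from the median. Bmp1 against Pcolce2 gave r = -0.01 (Spearman 0.33), but r = 0.49 without the 2 farthest arrays. Pcolce against Pcolce2 gave r = 0.10 (Spearman 0.17), and r = 0.12 without the 2 farthest arrays. These values and those that follow describe 8 arrays that share 1 slide, the scaling and the mixture of tissue in each artery, and carry no p. Pcolce followed the mean of 11 fibrillar procollagen genes (r = 0.82, Spearman 0.86, r = 0.83 without the 2 farthest arrays). Bmp1 also gave r = 0.79 with that mean, which fell to 0.45 without the 2 farthest arrays. Pcolce2 gave r = -0.22 with the procollagens and r = 0.73 with the mean of 9 fibroblast markers (Spearman 0.57), but r = 0.16 without the 2 farthest arrays, miR-126+/+ 4 and miR-126-/- 1, so this relation rests on them.

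Markers of other tissue moved with some members. Within genotypes (genotype means removed) Pcolce2 gave r = 0.81 with the adipocyte mean and r = -0.72 with the skeletal muscle mean. With genotype means kept these were 0.62 and -0.69, and without the 2 farthest arrays 0.52 and -0.43. Bmp1, with genotype means removed, gave r = -0.85 with 7 Schwann cell markers and r = 0.83 with 7 macrophage markers. With genotype means kept and without the 2 farthest arrays, the Bmp1 values were -0.11 for Schwann cell and 0.73 for macrophage markers, so the former rests on those arrays. Pcolce2 also gave r = 0.70 with 7 endothelial markers, with and without the 2 farthest arrays. With the adipocyte mean as a covariate the Pcolce2 difference was -0.74 ± 0.32 (SE) in place of 0.14 ± 0.30. With the skeletal muscle mean as the covariate the Pcolce2 difference was 0.19 ± 0.23 (SE). Without the 2 arrays highest in skeletal muscle markers it was 0.25. The part of these tissues in the Pcolce2 and Bmp1 values was not tested further.

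**Figure D3:**
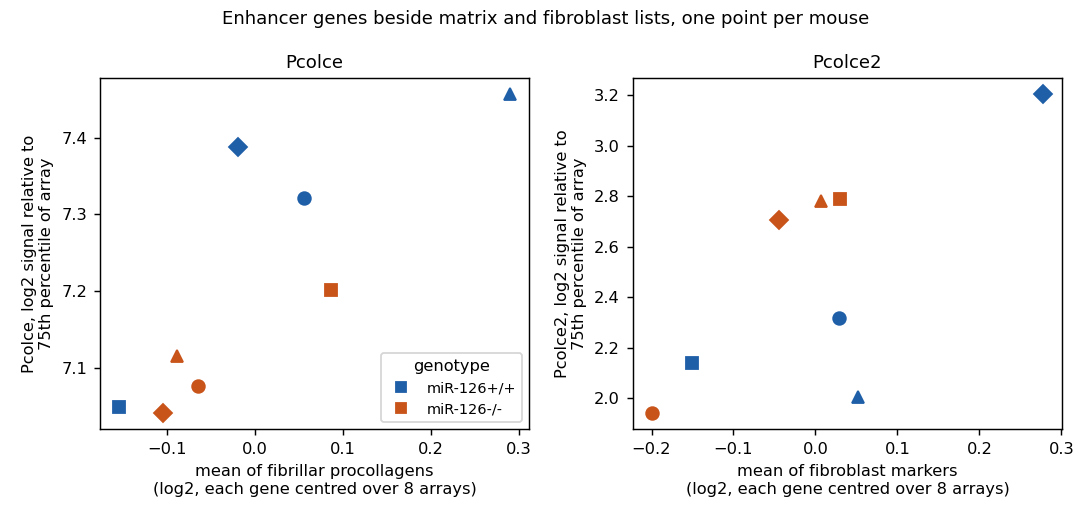
Left, log2 signal of Pcolce (y axis) against the mean of 11 fibrillar procollagen genes (x axis); right, Pcolce2 against the mean of 9 fibroblast markers, each point 1 mouse, coloured by genotype, with circle, square, triangle and diamond for replicates 1 to 4. Pcolce ascends with the procollagens over most mice (r = 0.82), while the Pcolce2 relation is carried by its highest and lowest mice.

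Genes most like each member were sought among 13800 genes with a RefSeq-matched name and signal above background on all arrays, by Pearson correlation over the 8 arrays with genotype means removed. At its brighter probe Tll1 was nearest to Bmp2 (r = 0.99), a bone morphogenetic protein ligand, and C1galt1c1 (r = 0.98), a chaperone of O-glycan synthesis. The dimmer Tll1 probe, which correlated with the brighter one at only r = 0.06 on this measure, was not searched, so this likeness describes 1 probe. Between genotypes Tll1 and Bmp2 differed in opposite directions (-1.11 and 0.48), and within miR-126+/+ both were highest in mouse 3. Bmp1 was nearest to the endocytic receptor gene Lrp1 and the macrophage metal transporter gene Slc11a1 (r = 0.98 each). Pcolce was nearest to Setbp1 and to P3h3, a collagen prolyl hydroxylase family gene (r = 0.99 each). Pcolce2 was nearest to Fyco1 and to Ace, the angiotensin-converting enzyme gene (r = 0.99 each). The genes named are the highest of 13800 correlations over only 8 arrays, so high values arise by the search itself. Between 0.681% and 0.906% of the candidates exceeded 0.9 for a given member.

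The other genes of the pathway were taken from 5 lists and compared between genotypes in limma. The lists were drawn up with earlier results of these arrays known, so their counts are not independent evidence. Of 81 tested genes 0 passed an adjusted p of 0.05 in either direction, where 0.0546% of all genes passed as higher and 0.0587% as lower. At an unadjusted p under 0.05 were 8 of them, where 10.2% of all genes were.

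The substrates, fibrillar procollagens, had 11 of 11 genes tested, 5 higher and 6 lower, and a median of -0.04 against -0.01 for all genes. That median was -0.13 without miR-126+/+ 2 and 0.06 without miR-126+/+ 3. Col1a1, the major collagen I chain, gave 6.95 ± 0.19 in miR-126+/+ and 6.91 ± 0.07 in miR-126-/- arteries (SD, n = 4 each), a difference of -0.04 ± 0.11 (SE). Col3a1, the collagen III chain, gave 7.91, 7.33, 7.77 and 7.50 in miR-126+/+ mice and 7.90, 8.06, 7.91 and 7.93 in miR-126-/- mice. The Col3a1 genotypes overlapped through miR-126+/+ 1, and the difference of 0.33 ± 0.14 (SE) did not pass in limma (adjusted p = 0.471). Col27a1 gave -0.42 ± 0.19 and Col5a3 -0.29 ± 0.16, both with adjusted p over 0.05 in limma (0.506 and 0.607). The spot for Col11a1 fell within the dim area of array miR-126-/- 4.

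Other proteins that tolloids cut had 17 of 20 genes tested (Dspp, Mstn and Apoa1 were too dim), 7 higher and 10 lower, with a median of -0.02 that ran from -0.08 without miR-126+/+ 2 to 0.09 without miR-126-/- 1. The gene of lysyl oxidase, the collagen cross-linking enzyme Lox, gave -0.06 ± 0.28 (SE), and the other Lox probe gave -0.02 ± 0.31. Chordin (Chrd), the BMP antagonist, gave 0.30 ± 0.16. Fn1, the fibronectin gene, gave 7.97, 7.75, 8.11 and 7.32 in miR-126+/+ mice and 7.50, 6.62, 7.56 and 6.36 in miR-126-/- mice, a difference of -0.78 ± 0.31 with overlap (adjusted p = 0.450 in limma). Lama3, a laminin chain gene, gave 0.25 ± 0.16 at its brightest probe and 1.05 ± 0.20 at a dimmer one, the same direction with different sizes.

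Regulators of tolloid activity had 8 of 9 genes tested (A2m was too dim), 5 higher and 3 lower, with a median of 0.01 that ran from -0.04 without miR-126+/+ 2 to 0.04 without miR-126+/+ 1. Pcsk6, the proprotein convertase PACE4, gave 1.96, 1.51, 1.58 and 1.95 in miR-126+/+ mice and 2.11, 2.52, 3.13 and 2.35 in miR-126-/- mice. All 4 miR-126-/- values lay above the miR-126+/+ values, as was so for 3.84% of all genes. The difference of 0.78 ± 0.23 (SE), 1.71-fold, did not pass in limma (adjusted p = 0.287). Sfrp2, a secreted frizzled-related protein gene, gave 0.42 ± 0.22 and Pcsk5, another proprotein convertase gene, gave -0.26 ± 0.25.

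Other genes of collagen maturation had 22 of 25 tested (Adamts3, Mep1a and Mep1b were too dim). Of these 4 were higher and 18 lower, with a median of -0.08, where 51.1% of all genes were lower. That median was -0.19 without miR-126+/+ 2 and -0.03 without miR-126+/+ 3. The prolyl 3-hydroxylase gene P3h2 gave -0.49 ± 0.15, the collagen galactosyltransferase gene Colgalt2 gave -0.56 ± 0.20 and the lysyl hydroxylase gene Plod3 gave -0.24 ± 0.12 (SE, n = 4 each), with adjusted p of 0.319, 0.386 and 0.554 in limma. The list mean was highest on miR-126+/+ 3 (0.29), the mouse with the highest Bmp1 and Pcolce values.

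BMP signalling, which tolloids release by cutting chordin, had 23 of 25 genes tested (Chrdl2 and Bambi were too dim), 8 higher and 15 lower, with a median of -0.11 that ran from -0.18 without miR-126-/- 2 to -0.02 without miR-126-/- 1. Bmpr2, the type II BMP receptor, gave 1.15, 1.08, 1.27 and 0.83 in miR-126+/+ mice and 0.56, 0.40, 0.36 and 0.58 in miR-126-/- mice. All miR-126-/- values lay below all miR-126+/+ values, a pattern shared by 2.56% of all genes, and the difference of -0.61 ± 0.12 (SE), 1.52-fold, did not pass in limma (adjusted p = 0.156). The ligand gene Bmp2 gave 0.48 ± 0.15 (adjusted p = 0.328 in limma) and overlapped, with -0.01 on miR-126+/+ 3 and -0.04 on miR-126-/- 1 and 3. The antagonist gene noggin (Nog) gave -0.52 ± 0.21 (adjusted p = 0.466 in limma). Its genotypes did not overlap, but only barely, with -2.57 on miR-126+/+ 2 and -2.58 on miR-126-/- 1.

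**Figure D4:**
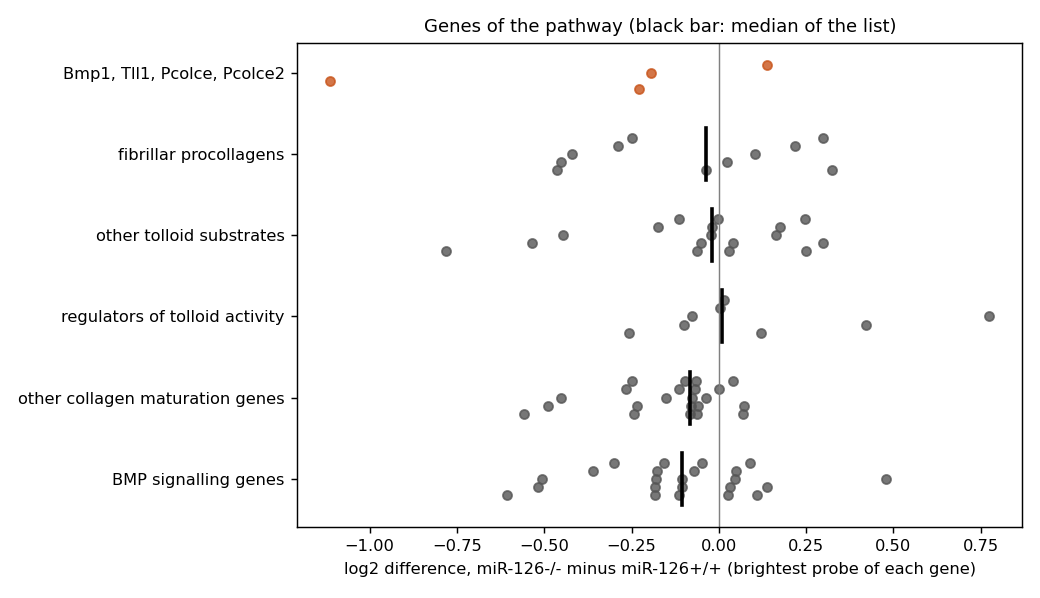
Log2 difference between genotypes (x axis, miR-126-/- minus miR-126+/+, brightest probe of each gene) for the 4 measured tolloid and enhancer genes (orange) and for each tested gene of the 5 pathway lists (grey, black bar at the median). List medians lie between -0.11 and 0.01. Tll1 at -1.11 lies below every pathway gene plotted, but the set was proposed with this difference in view. The dimmer Tll1 probe, not plotted, gave -0.42, which is above several of the pathway genes.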

How the data were processed

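Total RNA of 8 carotid arteries was labelled with Cy3 and hybridised to 1-colour Agilent arrays, and the deposited scanner files hold intensity values from Agilent Feature Extraction 10.7.3.1, background-subtracted per the file headers. Positions are on mm9, per the file headers. Control and outlier spots (146 to 216 per array) were left out, spots of a probe were averaged, and log2 of the deposited intensity was taken relative to the 75th percentile over noncontrol spots. The number of arrays limits the precision.

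The probe of highest mean signal stood for a gene. Genotypes were compared in limma 3.58.1 (R 4.3.3), with no covariate, 6 residual degrees of freedom and Benjamini-Hochberg adjustment over all 23830 genes tested; the fit was tested on simulated data. The labels' replicate numbers were not used. The authors' deposited value table served as an alternative. Its log2 values had a median difference of 0 from the scanner values on each array, and 99.9% of them lay close to those. It is therefore no separate measurement.

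The members and all gene lists were chosen with earlier results of these data known. Named are the members, the 3 genes of smallest unadjusted p in each pathway list, Col1a1, Col3a1, Lox and Chrd, and the 2 genes most like each member. Egfl7 and Apoe are also named, but neither checks the labels. RefSeq names (GRCm38.p6) matched 26407 probes (47.4%). Protein sequences were not used here.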

Additional observations from a re-analysis of the deposited data

Results flagged for a closer look

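Of 50 groups of 4 mice checked (member probes and named genes), 3 held a mouse whose gap to the nearest other, divided by the range of the group, was above Dixon's critical value for that group size. Chance gives this in about 1 in 20 groups. The brighter Tll1 probe was high in miR-126+/+ 3 (-1.44 against -1.95 to -1.87 in the other mice, ratio 0.843). Bmp2 was high in the same mouse (-0.01 against -0.45 to -0.38, ratio 0.839). Pcolce2 was low in miR-126-/- 1 (1.94 against 2.71 to 2.79, ratio 0.905), where skeletal muscle markers were high (3.15), and the part of that tissue in the value was not tested.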

How the results depend on the processing

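The Tll1 difference was -1.11, and it was -0.83 with normexp, -0.77 as the mean of its probes and -0.42 at its dimmer probe. Bmp1 was -0.23, and it was -0.44 at its 5'-most probe, -0.14 with normexp, -0.13 with array weights and -0.16 with the adipocyte covariate. Pcolce2 was 0.14, and it was -0.74 ± 0.32 (SE) with the adipocyte mean as a covariate and 0.19 ± 0.23 (SE) with the skeletal muscle mean. Leaving out each array gave -1.19 to -0.996 for Tll1, -0.32 to -0.11 for Bmp1, -0.28 to -0.14 for Pcolce and 0.00077 to 0.40 for Pcolce2. The cause of these shifts was not tested. Each pathway list had 0 genes past the limma threshold under all 23 alternatives. With the adipocyte covariate the median was 0.18 for fibrillar procollagens and -0.29 for BMP signalling genes. With that covariate it was -0.005 for other collagen maturation genes, 0.17 for regulators of tolloid activity and -0.04 for other tolloid substrates.

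Over all genes 27 passed in limma. The count was 11 with quantile normalization, 12 with the deposited table, 11 with no filter on dim probes, 6 with signal required on all 8 arrays, 10 with the mean of probes, 13 with every probe on its own, 71 with array weights and 11 with the skeletal muscle covariate. It was 0 with the adipocyte covariate (1113 genes had an unadjusted p under 0.05) and 0 (2056 unadjusted) when both arrays highest in skeletal muscle markers were left out. Leaving out each array gave 0 to 51, with 0 (1920 unadjusted) without miR-126-/- 2 and 51 without miR-126+/+ 4. With the replicate number as a block 0 genes passed (2180 unadjusted). The replicate number was also the slide column in both slide rows, so a block by number and one by column cannot be told apart. Same-numbered arrays correlated at 0.21, -0.29, -0.04 and 0.01, and only number 1 correlated best with its own. These values cannot show whether the mice were paired. Dimness limits Tll1, whose dimmer probe gave 39.8 to 75.5 intensity units, and Tll2, which has only a bound.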
